A study of Rattus norvegicus with 12 samples.

Results

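The comparison described here is zebularine against vehicle in the libraries coded F, taken from the preoptic area of newborn female rats. Its members are the 3 files coded FZEB and the 3 coded FVEH, 6 of the 12 libraries of the series, and their sample titles name them as zebularine-treated and vehicle females. Both groups were treated on postnatal days 0 and 1, and tissue was collected on postnatal day 2. Vehicle animals received saline holding 0.1% DNMSO, as the labels spell the solvent. The sources used here do not give strain, dose, route or the number of animals per library, so the 3 libraries of a group may come from separate or pooled animals and p-values measure the spread between libraries. The 6 libraries coded M, from vehicle and zebularine males treated on the same schedule, served as a second set in which the genes were read again.

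Zebularine is a cytidine analogue that is built into DNA and traps DNA methyltransferases, the enzymes that copy and set methylation of cytosine, so that methylation is lost as cells divide. Methylation of promoters is a known means of keeping genes silent. The preoptic area is a forebrain region that controls reproductive behaviour and differs between the sexes, and its sex difference is set by gonadal steroids around birth. The question put by the design is which transcripts differ in the female preoptic area when DNA methyltransferases are inhibited at that age.

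The files hold RPKM, the reads of a gene divided by the length of its model and by the reads assigned to genes in that library, for 29516 Ensembl rat gene identifiers. They do not pair identifiers with symbols, and the RefSeq gene table used here matched 0 of them, so genes are described by identifier, level, gene model length and response. Marker genes of the preoptic area, of other cell types and of sex could for the same reason not be looked up, and the tissue label was not checked. The 6 female libraries had between 21286762 and 27123047 reads assigned to genes. At 2274.5 bases, the median length of gene models with over 10 reads, 3 reads in the shallowest of them correspond to 0.0620 RPKM, the limit for counting error only. Of the genes in the files, 15772 had at least 0.5 RPKM in at least 3 of the 6 female libraries and were tested by limma on log2(RPKM + 0.5). Fold changes on this scale understate the change of low genes.

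Zebularine female replicate 3 was unlike the rest of its group. In it 455 tested genes exceeded the mean of replicates 1 and 2 by 2-fold or more on the log2(RPKM + 0.5) scale and 170 lay as far below, where each of the other 5 female libraries had from 51 to 140 such genes above and from 88 to 228 below the other libraries of its own group. Over all tested genes it was the highest of the 3 treated females for 42.4% of genes. The median SD between libraries, on the log2(RPKM + 0.5) scale, was 0.117 in both female groups, and 0.0767 between zebularine replicates 1 and 2 alone. At equal spread a median SD of 2 libraries lies below that of 3, and no vehicle pair was set beside it. The main counts and the changes of the genes described below are therefore given with and without zebularine female replicate 3.

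In females 7 genes rose under zebularine and none fell, of 15772 tested (limma adjusted p under 0.05, 0.0444% of genes higher and 0% lower). Their treated means were 2.26 to 41.9 times their vehicle means, and 1.99 to 23.9 times without zebularine female replicate 3. Of the 7, 5 lay under 2 RPKM in vehicle females, and 5 also had all 3 treated males above all 3 vehicle males, as had 8.44% of all tested genes. The fit that chose the 7 shares its spread with the male libraries, which favours genes with little male spread. With only the 6 female libraries in the fit, limma counted 0 higher genes and 1 lower, and the 7 genes had adjusted p from 0.202 to 0.395. Without zebularine female replicate 3, 4 genes passed, all higher (0.0254% of those tested), and 3 of them were among the 7.

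ENSRNOG00000015550 changed most. It stood at 1.86, 4.86 and 14.2 RPKM in the vehicle females and at 156, 177 and 543 RPKM in the zebularine females. All 3 treated libraries lay above all 3 vehicle libraries, and the highest treated value was that of replicate 3. The log2 change was 5.44 ± 0.71 (SE, limma adjusted p = 0.0347, from 0.0176 to 0.299 across alternatives). Without replicate 3 it was 4.87 ± 0.72 and no longer passed (limma adjusted p = 0.0807), although both remaining treated libraries lay above every vehicle library. In males the gene was at 2.40, 1.38 and 0.749 RPKM under vehicle and 6.10, 1.75 and 1.32 RPKM under zebularine, with overlap. Its reads were spread unevenly already among vehicle females, from 36 to 232 per library.

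ENSRNOG00000002217 was close to absent in vehicle females, at 0.108, 0.202 and 0.445 RPKM, which is between 2 and 7 reads per library. In zebularine females it stood at 2.45, 5.78 and 10.4 RPKM, on 38 to 163 reads. The groups did not overlap with or without replicate 3, again the highest. The log2 change was 2.99 ± 0.37 (SE, limma adjusted p = 0.0300, from 0.00102 to 0.395 across alternatives), and 2.54 ± 0.29 without that library (limma adjusted p = 0.0343). The male libraries, which enter this fit only through the shared estimate of the spread, gave 0.357, 0.197 and 0.183 RPKM under vehicle against 3.69, 3.72 and 3.78 RPKM under zebularine. The male log2 change of 2.51 ± 0.37 (SE) was close to the female one without replicate 3, but missed the threshold (limma adjusted p = 0.0977). That SE comes from the spread shared over the 4 groups, so the spread of the female libraries enters the male test.

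ENSRNOG00000024382 had close estimates of the change in the 2 sexes. Vehicle females were at 1.64, 1.54 and 1.08 RPKM and zebularine females at 3.72, 3.94 and 5.58 RPKM. The log2 change was 1.35 ± 0.16 (SE, limma adjusted p = 0.0280, from 0.0145 to 0.5004 across alternatives) and 1.18 ± 0.14 without replicate 3 (limma adjusted p = 0.0343). Males went from 1.16, 1.14 and 1.03 RPKM to 3.86, 3.79 and 3.29 RPKM. Their log2 difference of 1.36 ± 0.16 (SE, again shared over the 4 groups) just missed the threshold (limma adjusted p = 0.0509). The male minus female difference of the effect was 0.01, with a 95% interval from -0.48 to 0.51. No treated library of either sex overlapped a vehicle library.

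ENSRNOG00000006010 had the smallest p of the comparison and was flat in males. Vehicle females stood at 1.09, 1.21 and 2.00 RPKM and zebularine females at 5.18, 7.24 and 8.57 RPKM, on 54 to 84 and 215 to 357 reads. The log2 change was 1.96 ± 0.21 (SE, limma adjusted p = 0.0216, from 0.00835 to 0.299 across alternatives) and 1.81 ± 0.22 without replicate 3 (limma adjusted p = 0.0343). Vehicle males gave 1.60, 1.33 and 1.08 RPKM and zebularine males 1.45, 1.13 and 1.27 RPKM. The male 95% interval ran from -0.50 to 0.42 on the log2 scale. The male minus female difference of the effect was -1.997, with a 95% interval from -2.65 to -1.35 (limma unadjusted p = 3.04e-05). It did not pass the threshold (limma adjusted p = 0.479), but no tested gene had a smaller adjusted p for this difference. Of all tested genes, 4.05% had an unadjusted p under 0.05 for it. The gene was chosen for its female change, which favours a difference between the sexes.

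The other 3 genes that rose had gene models of 396, 541 and 1001 bases. The 396-base gene stood at 0.794, 1.21 and 1.52 RPKM in vehicle females and at 4.51, 4.29 and 4.37 RPKM in zebularine females, on 8 to 13 and 37 to 41 reads. It was the only one of the 7 in which replicate 3 was not the highest treated library, and its log2 change was 1.57 with and without that library. The 541-base gene went from 1.02, 0.886 and 0.857 RPKM to 2.43, 2.75 and 3.72 RPKM. The 1001-base gene, the most abundant of the 7 under vehicle, went from 8.33, 9.69 and 8.02 RPKM to 15.7, 18.8 and 24.4 RPKM. None of the 3 passed without replicate 3 (limma adjusted p = 0.0920, 0.0868 and 0.0559). All 3 had treated males above vehicle males without overlap in RPKM, with male log2 changes of 0.60, 0.88 and 0.84. The 396-base gene had 9, 4 and 10 reads in vehicle males and 16, 10 and 9 in zebularine males. Its male reads thus overlapped before division by library totals.

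A further gene, with a model of 3957 bases, passed only without replicate 3. It stood at 0.387, 0.391 and 0.598 RPKM in vehicle females and at 2.07, 3.41 and 23.5 RPKM in zebularine females, so that replicate 3 was 8.59 times the mean of the other treated libraries. With all 3 treated libraries the log2 change was 2.71 ± 0.61 (SE, limma adjusted p = 0.195), and without replicate 3 it was 1.73 ± 0.20 (limma adjusted p = 0.0343, and between 0.0343 and 0.865 over all alternatives). In this gene the outlying library was high in the same direction as the others, and removing it narrowed the spread. The 6 male libraries lay between 0.207 and 0.346 RPKM.

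**Figure D1:**
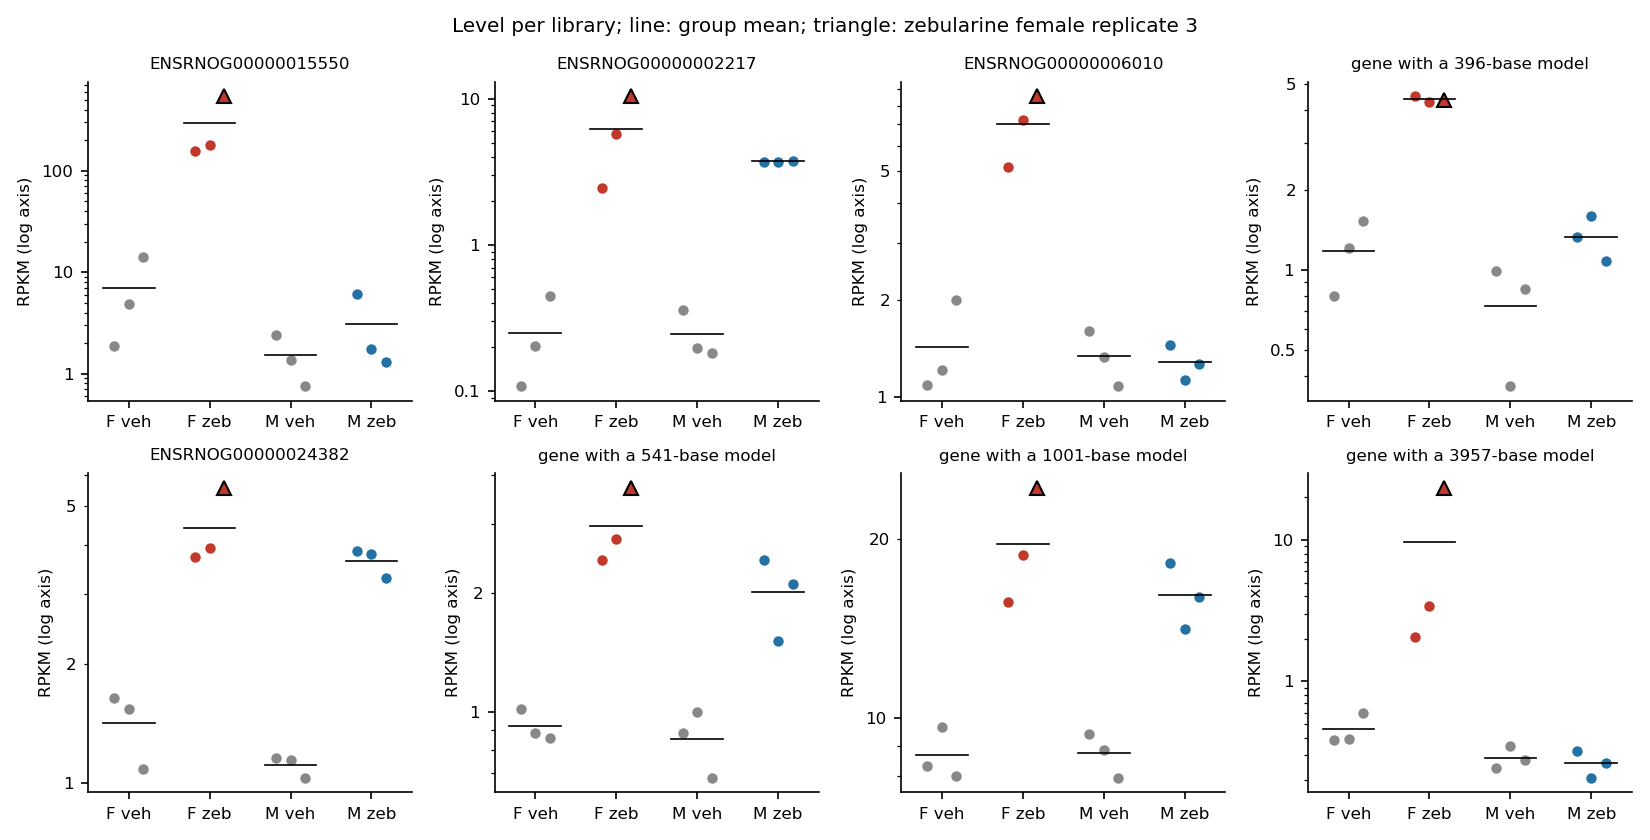
RPKM (log axes, scaled per panel) of the 7 genes that rose and of the 3957-base gene in each of the 12 libraries, with lines at group means and a triangle for zebularine female replicate 3. Treated females lay above vehicle females in every panel. In ENSRNOG00000015550, ENSRNOG00000006010 and the 3957-base gene the male groups overlapped.

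**Figure D2:**
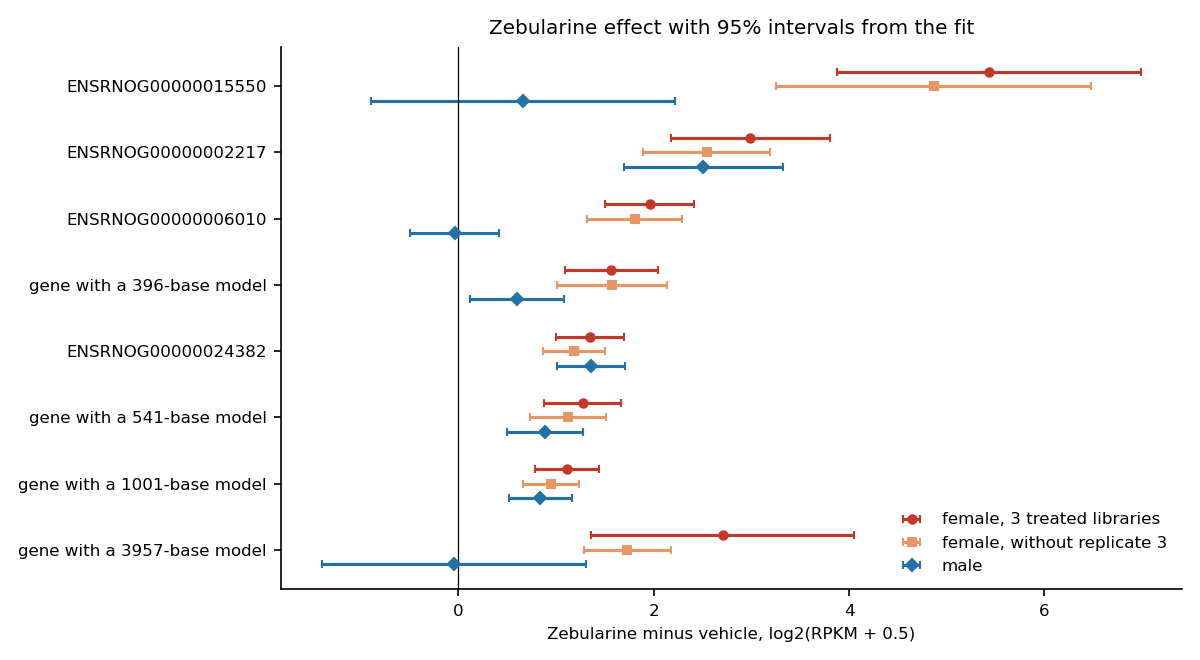
Zebularine minus vehicle on the log2(RPKM + 0.5) scale for the same 8 genes, with 95% intervals from limma, for females with 3 treated libraries, for females without replicate 3, and for males. The female change stayed above 0 without replicate 3 in all 8, which was fixed because no treated female overlapped a vehicle female. The male intervals of ENSRNOG00000015550, ENSRNOG00000006010 and the 3957-base gene included 0.

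Just past the threshold lay 12 more genes, all higher under zebularine, their adjusted p by limma lying between 0.0503 and 0.0960. With the 7 they make 19 genes under an adjusted p of 0.10 (0.120% of those tested), and none was lower at that threshold. The log2 changes of the 12 ran from 0.83 to 1.84. In 11 of the 12, the 3 treated males lay above the 3 vehicle males, where 8.44% of all tested genes did so. The male libraries were independent of the choice of these genes, apart from the spread that the fit shares over the 4 groups. Replicate 3 was the highest treated library in 17 of the 19 genes and replicate 1 the lowest in 16. The median log2 change of the 19 was 1.44 in females with all libraries, 1.14 without replicate 3 and 0.88 in males, where the medians over all tested genes were 0.00, 0.00 and 0.00.

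How many genes passed depended by over 1.5 times on each of 11 libraries, zebularine male replicate 1 being the exception. Leaving out vehicle female replicates 1, 2 and 3 in turn gave 0, 1 and 2 genes, and leaving out zebularine female replicates 1, 2 and 3 gave 64, 0 and 4. Without vehicle male replicates 1, 2 and 3 the count was 1, 2 and 1, and without zebularine male replicates 1, 2 and 3 it was 5, 0 and 0. All 7 genes were among the 64 found without zebularine female replicate 1, which was the lowest treated library in 6 of the 7, and 2 lower genes passed there too. Leaving out a male library leaves the female changes as they were and alters only the shared estimate of the spread. The log2 changes moved less than the counts. Over the fits that left out 1 library, ENSRNOG00000015550 ranged from 4.80 to 6.12, ENSRNOG00000002217 from 2.54 to 3.49, ENSRNOG00000006010 from 1.81 to 2.16 and ENSRNOG00000024382 from 1.18 to 1.45.

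**Figure D3:**
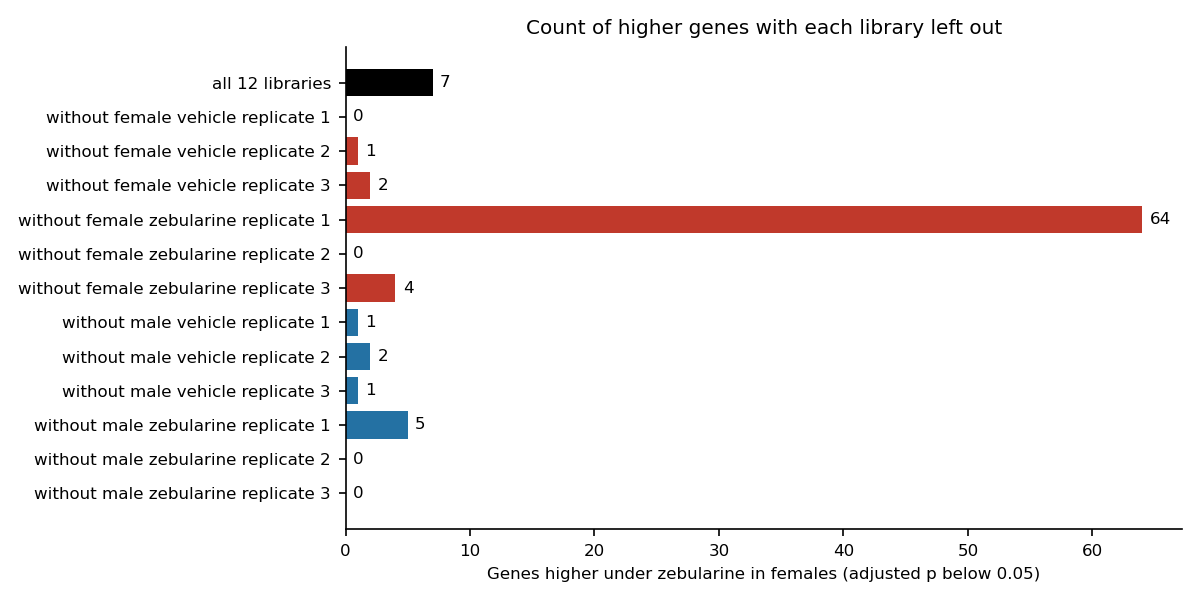
Number of genes higher in zebularine females at a limma adjusted p under 0.05, with all 12 libraries (black) and with each library left out in turn (red, female; blue, male). The count was 7 with all libraries, 64 without zebularine female replicate 1 and at most 5 without any other library.

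At an unadjusted limma p under 0.05, 640 genes were higher (4.06%) and 207 lower (1.31%) in zebularine females. If no gene changed, a share of 0.05 of tested genes would be expected at this cut, both directions together. The 640 and 207 genes are therefore described as groups, not as genes shown to respond. Higher genes made up 75.6% of the genes at this cut with the RPKM as deposited, 70.1% after median-ratio scaling and 59.8% after quantile normalization, which gave 548 higher and 369 lower. Without vehicle female replicate 2 the share was 59.4%, with 366 lower genes, and without vehicle female replicate 1 there were 134 lower genes. The 640 genes were of low expression, with a median of 1.89 RPKM in vehicle females against 8.61 RPKM for all genes tested. Treated libraries lay above vehicle libraries without overlap for 918 tested genes (5.82%) and below for 529 (3.35%). With 3 libraries against 3 and no change, a share of 0.1 of genes would be expected to separate, both directions together.

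Much of the upward group was highest in zebularine female replicate 3. That library was the highest treated one for 86.2% of the 640 higher genes, against 42.4% of all tested genes. It was the lowest for 44.0% of the 207 lower genes, against 34.4% of all tested genes. Without it 395 genes were higher (2.50%) and 194 lower (1.23%). Of the 640, all kept their direction, 317 kept an unadjusted p under 0.05, and the median log2 change went from 0.58 to 0.36. Of the 207 lower genes all kept their direction and 102 their p, and the median went from -0.40 to -0.37. The 640 genes were chosen on values that include replicate 3, so a high value there helped to choose them. The other female libraries also took part in choosing the 640 and 207 genes, which favours a kept direction.

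The higher genes were read again in the male libraries. Treated males lay above vehicle males without overlap in 218 of the 640 genes (34.1%), where 8.44% of all tested genes did. Among the 317 that kept their p without replicate 3 the share was 46.4%, and among the other 323 it was 21.98%. The fits that chose the 640 and 207 genes and divided the 317 from the 323 share their spread with the male libraries. This favours genes with little male spread in each of these male shares. The difference between the 317 and the 323 was not tested. The median male log2 change was 0.27 in the 317 genes and 0.08 in the 323. For the 207 lower genes treated males lay below vehicle males in 21 (10.1%), against 6.05% of all tested genes, and the median male log2 change was -0.03. The direction in males was the same for 71.2% of the 640 and 56.5% of the 207, where 50.3% of all tested genes were above 0 and 49.7% below 0 in males.

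The larger female changes differed in their male values. Of the 640 genes, 59 had a log2 change of at least 1 without replicate 3. In 24 of the 59 the male log2 change was at least 0.5, and in 35 it was under 0.5, with 12 below 0. Treated males lay above vehicle males without overlap in 23 of the 59 (39.0%, against 8.44% of all tested genes). As for the 640, the choice of the 59 favoured genes with little male spread. The difference of the effect between the sexes passed for no gene by limma, with 639 genes at an unadjusted p under 0.05.

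**Figure D4:**
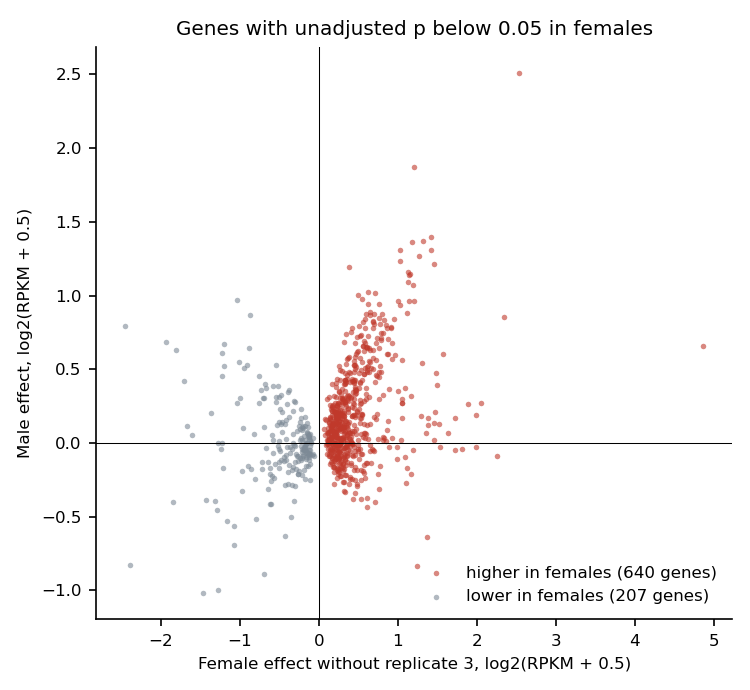
Zebularine effect in males against that in females without replicate 3, both on the log2(RPKM + 0.5) scale, for the 640 higher (red) and 207 lower (grey) genes of the female comparison (limma, unadjusted p under 0.05). Of the 59 red points at 1 or more on the female axis, 24 lie at 0.5 or more on the male axis and 35 below it.

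Of the 455 genes that were 2-fold up in replicate 3 itself, 127 were among the 640. The other zebularine females were close to vehicle for these 455 genes, with a median log2 change of 0.07, and 74 of the 455 (16.3%) had an unadjusted p under 0.05 for higher without replicate 3, where 2.50% of all tested genes did. Treated males lay above vehicle males in 50 of them (10.99%), near the 8.44% of all tested genes. Their median level in vehicle females was 1.41 RPKM. Because the levels of zebularine replicates 1 and 2 enter the choice of these genes, their median without replicate 3 is a description only.

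In the main fit no gene fell at the threshold, while 2 did with no filter on low values. The smallest p among genes with treated libraries below vehicle libraries belonged to ENSRNOG00000035751, at 33.9, 35.8 and 31.6 RPKM in vehicle females and 22.1, 22.6 and 23.4 RPKM in zebularine females. Its log2 difference was -0.56 ± 0.11 (SE, limma adjusted p = 0.142, from 0.111 to 0.611 across alternatives; -0.59 and 0.267 without replicate 3), and its gene model of 66 bases held between 31 and 64 reads per female library. Its male libraries gave 30.3, 26.2 and 22.8 RPKM under vehicle and 39.3, 34.4 and 30.2 RPKM under zebularine, so that the male log2 difference was 0.39 ± 0.11 (SE, limma adjusted p = 0.645). ENSRNOG00000043790 was next, at 5.40, 4.15 and 2.90 against 1.76, 1.55 and 1.17 RPKM, on 11 reads or fewer per library (limma adjusted p = 0.142, between 0.0789 and 0.589 under the alternatives, and 0.339 without replicate 3). Its log2 difference was -1.20 with all libraries and -1.07 without replicate 3. In males it stood at 3.80, 3.604 and 3.76 RPKM under vehicle and 1.64, 3.15 and 1.78 RPKM under zebularine, lower without overlap, with a log2 difference of -0.69 that did not pass (limma adjusted p = 0.645).

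With only the 6 female libraries in the fit, 1 lower gene passed (0.00634% of those tested), ENSRNOG00000035654, singled out after its values were seen. It had 4, 4 and 3 reads in vehicle females and 0 in each zebularine female, on a gene model of 70 bases. Its limma adjusted p was 0.0226 in that fit and 0.144 with all 12 libraries, and from 0.0226 to 0.589 across alternatives. Vehicle males had 4, 4 and 1 reads and zebularine males 2, 0 and 2.

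These lower genes had short gene models, and so did many of the 207. Of the 207, 64 (30.9%) had a model under 200 bases, against 23 of the 640 higher genes (3.59%) and 865 of all 15772 tested (5.48%). Without replicate 3 the share among lower genes was 40.7%, and across alternatives it ran from 20.2%, without vehicle female replicate 2, to 53.2%, with a block on the replicate number in the 6 female libraries. Among the 554 genes with an unadjusted p under 0.05 for lower in males the share was 6.68%. The median log2 change of the 865 short models was -0.12 in females, -0.16 without replicate 3 and 0.02 in males, against 0.01, 0.00 and 0.00 for longer models. The bound of 200 bases was set after the values were seen. Lengths were recovered as the shortest that make all reads whole, so a gene with few reads may have a longer model and more reads than given here.

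Short models rested on few reads. The 865 had a median of 5.50 reads per female library against 557 for longer models, and 673 of them (77.8%) had fewer than 20. Of the 64 short lower genes 49 had fewer than 20 reads. Vehicle females averaged 24708193 reads per library and zebularine females 22272301. The part of read number and depth in the lower short models was not tested. Leaving the short models aside, 617 genes were higher and 143 lower.

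**Figure D5:**
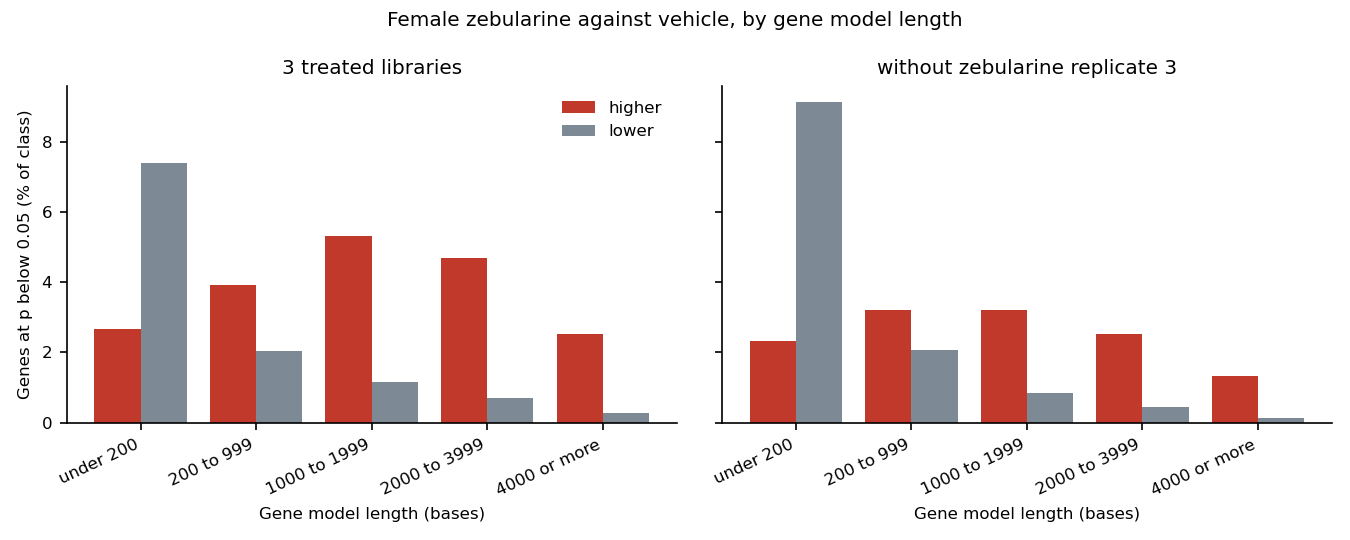
Percent of tested genes in each class of gene model length (bases) that were higher (red) or lower (grey) in zebularine females by limma at an unadjusted p under 0.05, with 3 treated libraries (left) and without zebularine replicate 3 (right). Lower genes outnumber higher ones only under 200 bases, at 7.40% against 2.66% with all libraries and 9.13% against 2.31% without replicate 3.

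In the longer classes the share of lower genes went down with length, from 2.04% at 200 to under 1000 bases to 0.279% at 4000 bases or more. The share of higher genes was largest at 1000 to under 2000 bases, at 5.32%, and 2.53% at 4000 bases or more. Without replicate 3 the share of higher genes was 3.21% at 1000 to under 2000 bases and 1.32% at 4000 or more. The median 95% interval of a female change extended 1.18-fold each way with all libraries and 1.199-fold without replicate 3.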

How the data were processed

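RNA-seq of rat preoptic area was analysed from 12 libraries in 4 groups of 3, grouped and numbered by the sample titles. Per the labels' protocols, RNA was extracted with Trizol and libraries followed a standard Illumina procedure. TopHat is named in the submitters' processing notes. Read counter, strand setting, genome build and annotation: not given in the sources used here. Genes that overlap, lie antisense or have near-identical copies may therefore share reads.

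The authors deposited RPKM values, 1 file per library. For each of the 23427 genes above 0 the values are whole multiples of 1 step, within 0.0001 of a read, which gave reads, library totals and gene model lengths (the shortest length that makes all reads whole). Replicate pairs within the female groups were not duplicates, with a chi-square of at least 5.94 per degree of freedom.

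The genes tested had 0.5 RPKM or more in 3 or more of the 6 female libraries. They were fitted on log2(RPKM + 0.5) with limma 3.58.1 (R 4.3.3; eBayes with trend) as 4 group means over 12 libraries, two-sided, with Benjamini-Hochberg adjustment over 15772 genes and a threshold of 0.05. The fit was tested on simulated data. Those data held no outlying library, so the step could not test the effect of zebularine female replicate 3. Tables were made with pandas 2.3.3 (Python 3.11.15) and figures with matplotlib 3.10.9.

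Named genes are at most 2 per direction and comparison, by the largest change among genes that passed and otherwise by the smallest p without overlap at a mean of at least 1 RPKM, plus genes that earlier work on these data had already named by identifier. The 24 gene lists were not used, since no identifier matched a symbol. The members, lists and tests were chosen with earlier results of these data known.

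Alternatives tried were pseudocounts of 0.1 and 1, quantile normalization, median-ratio scaling, no filter, a filter of 1 RPKM, a filter over 12 libraries, robust limma, array weights, blocks on the replicate number and on the number in the file names, limma-voom on recovered reads, an adjusted p threshold of 0.10, fits of 1 sex alone, and leaving out each library.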

Additional observations from a re-analysis of the deposited data

How the results depend on the processing

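Against 7 genes higher and 0 lower in females, there were 4 higher with a pseudocount of 0.1, 4 higher and 2 lower with no filter, and 2 higher with limma-voom on recovered reads, both of them among the 7. There were 0 higher and 1 lower with only the 6 female libraries, 0 higher with those less replicate 3, and 19 higher at an adjusted p of 0.10. Leaving out 1 library gave from 0 to 64 higher and from 0 to 2 lower genes. The other alternatives gave from 6 to 8 higher genes and 0 lower, apart from the blocks that follow. In males, 0 genes passed in either direction, with 554 lower and 656 higher at an unadjusted limma p under 0.05. The male count was 2 higher with a pseudocount of 0.1, 4 higher with array weights, and 5 higher at 0.10. It was 4 higher and 1 lower with only the 6 male libraries, and from 0 to 15 higher without 1 library. The 15 passed without zebularine female replicate 3, which enters the male comparison only through the shared estimate of the spread. The difference between the sexes gave 1 higher and 1 lower gene with no filter, and 0 under each other alternative. The cause of these differences was not tested.

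Pairing by replicate number was not seen in the female libraries, but 3 pairs are too few to exclude it. The correlations of deviations between same-numbered vehicle and zebularine females were -0.19, -0.01 and -0.04, and 0 of the 3 vehicle libraries correlated best with its own number. With the replicate block 1 gene was higher, not among the 7, and with the block and only the 6 female libraries also 1, which was among them. With a block on the file number 2 were higher, 1 of them among the 7.

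No log2 change of the named genes turned its sign under any alternative. Their female groups did not overlap, so leaving out a library, or changing the filter or pseudocount, could not have turned a sign. Genes resting on a few reads, such as the short models, are limited by depth.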

Other observations

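The tested genes were also divided into 4 equal classes by their mean RPKM over all 12 libraries. Of the 640 higher and 207 lower genes of the female comparison, those in the lowest class (up to 2.87 RPKM) were 84.1% higher. The second class held 76.1%, the third 67.4% and the highest class (from 22.4 RPKM) 46.6%, with 41 higher and 47 lower genes there. Without zebularine female replicate 3 the shares were 71.0%, 68.9%, 59.8% and 53.7%. The highest class was the only one of the 4 in which the share of higher genes was larger without that library.

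The lowest treated female was at least 2-fold above the highest vehicle female, on the log2(RPKM + 0.5) scale, in 8 tested genes, and the highest treated female at least 2-fold below the lowest vehicle female in 2. Of the 8 genes, 4 were among the 7 that rose, and treated males lay above vehicle males without overlap in 2, where 8.44% of all tested genes did so. These counts were not repeated without replicate 3.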
